A study of Mus musculus with 6 samples.

Results

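The receptors described here are the mouse protein-coding genes whose symbol is Gpr followed by a number, leaving out Gpr119, with a value above 0 in at least 1 of 6 islet libraries. The deposited table lists 54532 genes, among them 75 with such a symbol, of which 73 are protein coding. Beside Gpr119, 3 genes (Gpr12, Gpr15 and Gpr50) were at 0 in every library and dropped out, and 69 remained. At the other edge of that rule, Gpr139 and Gpr149 entered on 1 read in all 6 libraries together.

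G protein-coupled receptors cross the membrane 7 times and pass the binding of a ligand outside the cell to heterotrimeric G proteins inside it. In pancreatic beta cells, receptors coupled to Gs raise cyclic AMP and those coupled to Gq release calcium, and both strengthen insulin secretion, whereas Gi-coupled receptors restrain it. The symbol Gpr was given to receptors found by sequence before a ligand was known, so the set mixes true orphans, receptors whose ligands were found later, and membrane proteins of the Golgi or lysosome that do not act as classical receptors.

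Islets labelled as beta cells were compared between 3 libraries of controls labelled wt (numbered 1, 3 and 4) and 3 libraries with a conditional knockout (cKO) of Bcas2, which encodes a subunit of the spliceosome-activating Prp19 complex. The series' design text calls the same manipulation a knockdown, and its title concerns insulin synthesis, secretion and alternative splicing. The Bcas2 cKO columns carry the numbers 3, 4 and 5, while the sample labels name 1, 3 and 4, so library 5 was used as a member of its group without a label of its own. Not given in the sources used here were the Cre driver, the deleted exons, and the age, sex and strain of the mice. Nothing states that each library is a separate mouse, and the p-values cover the spread between these libraries alone, which may be technical. Reads on genes, recovered from the deposited FPKM (fragments scaled to gene length and sequencing depth), numbered 15170439 to 15594871 in the controls and 16351800 to 16904326 in the knockout. Bcas2 itself averaged 12.2 ± 2.51 FPKM in the controls against 8.77 ± 0.370 FPKM in the knockout (SD over 3 libraries, as for every value after ± here), with no overlap, a log2 fold change of -0.42 and a limma adjusted p of 0.0829.

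The preparations were not beta cells alone. Markers of beta cells made up 20.5 to 28.8% of control reads against 14.6 to 16.0% of knockout reads, most of them from Ins1 and Ins2. Of the 10, all tested, 3 fell (Slc2a2, Ucn3 and Slc30a8) and none rose, where 7.55% of all genes tested fell and 6.97% rose. The insulin genes did not pass the test, although neither overlapped between the groups. Their log2 fold changes were -0.59 (SE 0.48, limma adjusted p 0.436) for Ins1 and -0.87 (SE 0.62, limma adjusted p 0.379) for Ins2. Acinar markers took 0.525 to 1.31% and 1.70 to 4.93%, and alpha, delta and PP cell markers 3.68 to 3.80% and 4.58 to 4.97%. Of 17 tested acinar markers 6 rose, and of 10 alpha, delta and PP cell markers 2 rose, and none of either list fell. Ductal markers took 0.0504 to 0.0539% and 0.101 to 0.124%, and 2 of the 7 tested rose while none fell. No marker of any list was at 0 in all 6 libraries. In such bulk samples fewer cells of a type and less RNA per cell cannot be told apart.

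Most of the receptors were scarce. Averaged over all libraries, 6 reached 10 FPKM, 4 lay between 5 and 10 FPKM, 13 between 1 and 5 FPKM, and 46 below 1 FPKM. Gpr142, a receptor for tryptophan and other aromatic amino acids that is coupled to insulin secretion, led with a mean of 20.7 FPKM, followed by Gpr108, a Golgi protein, at 20.3 FPKM. The values of all 69 summed to 167 to 172 FPKM in the control libraries and 141 to 152 FPKM in the Bcas2 cKO libraries. As a share of reads the groups overlapped, at 0.0592 to 0.0671% and 0.0552 to 0.0631%. At least 1 read was found for 55 to 57 of the 69 in a control library and for 61 to 65 in a Bcas2 cKO library, and the depth contained in the FPKM was also larger there, 13498596 to 15861007 against 17247443 to 18141971 reads.

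**Figure D1:**
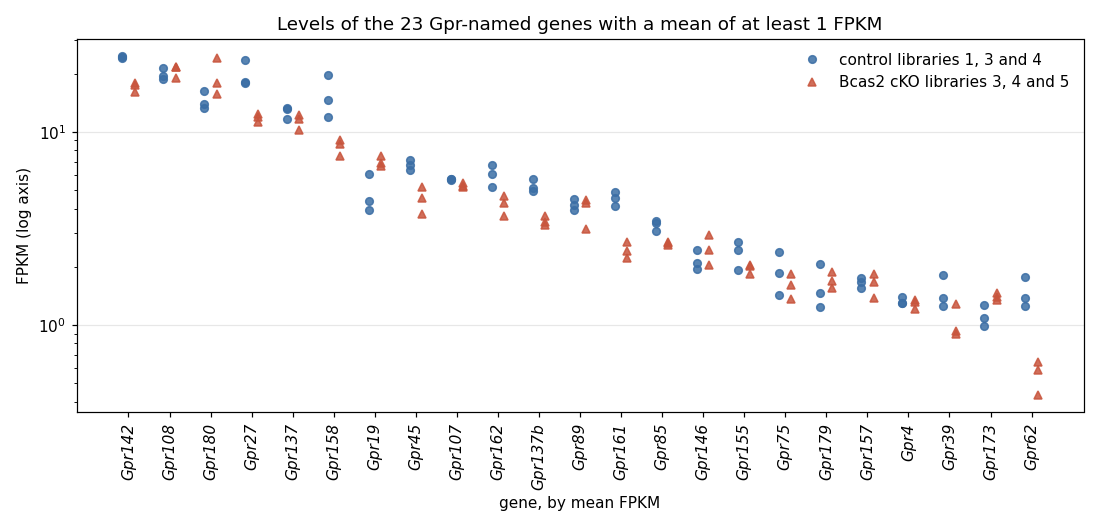
FPKM (log axis) of the 23 receptors with a mean of at least 1 FPKM, ordered by mean, with 1 point per library: circles for the 3 control and triangles for the 3 Bcas2 cKO libraries. The triangles of Gpr142, Gpr27, Gpr158, Gpr45, Gpr137b, Gpr161 and Gpr62 lie below all of their circles, and the levels run from over 20 FPKM for Gpr142 to 0.431 FPKM for the lowest library of Gpr62.

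Of the 69 receptors, the 23 with a mean of at least 1 FPKM were tested, within a fit across 13723 genes on log2(FPKM + 1). In Bcas2 cKO, 7 of the 23 fell and none rose (limma, threshold of 0.05 on the p adjusted by Benjamini-Hochberg), while over all genes tested 7.55% fell and 6.97% rose. Those that fell were Gpr142, Gpr27, Gpr158, Gpr45, Gpr137b, Gpr161 and Gpr62. Gpr62 reached the mean needed for the test only through its control libraries, which favoured its fall. The counts of this paragraph include it. The median log2 fold change of the 23 was -0.15, against -0.03 for all genes tested. The fold change lay below 0 for 17 of the 23 and above 0 for 6, but 4 of the 17 turned positive when recovered reads were scaled to library totals, which moved the median of all genes to 0.11, and 1 of the 6 turned negative when libraries were rescaled without the hormone genes, which moved it to -0.12. With those scalings the share of rises among all called genes was 76.0% and 32.7%, against 48.0% as reported. None of the 7 falls changed direction in any scaling. All 3 Bcas2 cKO values lay below all 3 control values for 10 of the 23 and above them for 2, where 21.1% and 16.8% of all tested genes did so. Absence of overlap alone could go with a small difference, as for Gpr107 at -0.09.

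**Figure D2:**
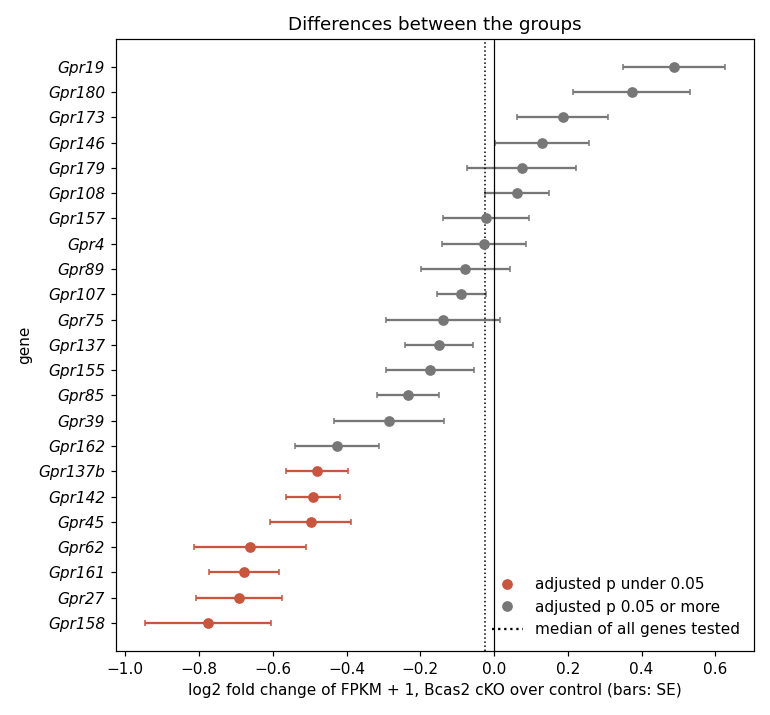
Log2 fold change of FPKM + 1 (Bcas2 cKO over control, bars show the SE) of the 23 receptors tested. Coloured points are the 7 with an adjusted p under 0.05, all at -0.48 or below, grey points are the other 16, and the dotted line is the median of all genes tested at -0.03.

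Among receptors grouped here by a known or proposed small-molecule or peptide ligand, Gpr142 (ENSMUSG00000034677, chromosome 11, 114798924 to 114806745, GRCm38) held 24.0, 24.7 and 24.5 FPKM in control libraries 1, 3 and 4 and 16.0, 17.4 and 17.8 FPKM in Bcas2 cKO libraries 3, 4 and 5. The control values were within 1 FPKM of each other and the groups did not overlap. The log2 fold change was -0.49 (SE 0.07, limma adjusted p 0.00852), on 324 to 424 reads per library. Gpr39, a receptor activated by zinc, which beta cells release with insulin, averaged 1.48 ± 0.290 FPKM in the controls against 1.03 ± 0.215 FPKM in the knockout, and its groups overlapped (limma adjusted p 0.240). Its exons share 39.9% of their bases with Lypd1 on the other strand, which had 30 reads over the 6 libraries. Gpr146, a receptor linked to blood cholesterol, was 2.16 ± 0.259 and 2.46 ± 0.440 FPKM (limma adjusted p 0.532). The 11 other receptors of this group were below 1 FPKM.

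Gpr27, Gpr85 and Gpr173 form the family of super conserved receptors expressed in brain, of which Gpr27 is also a receptor of islets tied to insulin production. Gpr27 (ENSMUSG00000072875, chromosome 6, 99692679 to 99695066), a gene of 1 exon, held 18.1, 23.6 and 17.9 FPKM in control libraries 1, 3 and 4 and 11.9, 11.3 and 12.3 FPKM in Bcas2 cKO libraries 3, 4 and 5. Control library 3 was the highest of the 6, and no Bcas2 cKO library reached the lowest control. The log2 fold change was -0.69 (SE 0.12, limma adjusted p 0.0129). Gpr85 was 3.28 ± 0.204 and 2.64 ± 0.0621 FPKM with no overlap, and did not pass the test (limma adjusted p 0.107). Gpr173 was the other way round, 1.11 ± 0.145 and 1.40 ± 0.0621 FPKM with no overlap, again without passing it (limma adjusted p 0.343).

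Gpr158 and Gpr179 are class C orphans, relatives of the metabotropic glutamate receptors. Gpr158 holds the RGS7 complex at the membrane and responds to glycine. Gpr158 (ENSMUSG00000045967, chromosome 2, 21367542 to 21830547) held 14.5, 11.9 and 19.6 FPKM in control libraries 1, 3 and 4 and 9.02, 8.67 and 7.49 FPKM in Bcas2 cKO libraries 3, 4 and 5. The control libraries spread widely, with library 4 highest, yet none reached down to the Bcas2 cKO values. The log2 fold change was -0.78 (SE 0.17, limma adjusted p 0.0286), on 1055 to 2356 reads per library. Gpr179, known from the bipolar cells of the retina, was 1.59 ± 0.431 and 1.70 ± 0.158 FPKM (limma adjusted p 0.767).

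Gpr161, a receptor of the primary cilium that keeps Hedgehog signalling off through cyclic AMP, gave the smallest adjusted p of the 23 tested. Gpr161 (ENSMUSG00000040836, chromosome 1, 165295789 to 165326745) held 4.14, 4.87 and 4.51 FPKM in control libraries 1, 3 and 4 and 2.40, 2.23 and 2.70 FPKM in Bcas2 cKO libraries 3, 4 and 5. The groups were far apart relative to the spread within them, and the knockout mean was 0.542 of the control mean. The log2 fold change was -0.68 (SE 0.09, limma adjusted p 0.00710), on 273 to 461 reads per library. Gpr157, which also localizes to cilia in neural progenitors, was 1.66 ± 0.105 and 1.62 ± 0.223 FPKM (limma adjusted p 0.918).

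The 26 class A orphans known mainly from neural tissue were the largest group and mostly near the limit of detection. Of the 5 tested 2 fell, Gpr62 among them, where 7.55% of all genes tested fell. Of 5 tested Schwann cell and neuron markers 2 fell and 1 rose, where 6.97% of all genes tested rose. The list summed to 27.8 to 35.1 FPKM in the controls against 17.6 to 25.8 FPKM in the knockout. The part of these markers in these receptors' values was not tested. Gpr45, an orphan of the brain (ENSMUSG00000041907, chromosome 1, 42952872 to 43035456) held 6.68, 7.14 and 6.32 FPKM in control libraries 1, 3 and 4 and 4.55, 3.76 and 5.16 FPKM in Bcas2 cKO libraries 3, 4 and 5. The groups did not overlap, with Bcas2 cKO library 4 the lowest. Its log2 fold change was -0.50 (SE 0.11, limma adjusted p 0.0290). Gpr62 (ENSMUSG00000091735, chromosome 9, 106463962 to 106465938), an orphan of oligodendrocytes, held 1.24, 1.76 and 1.38 FPKM in the controls against 0.641, 0.431 and 0.587 FPKM in the knockout, on 39 to 47 and 15 to 23 reads. Each control library was above each Bcas2 cKO library. The log2 fold change was -0.66 (SE 0.15, limma adjusted p 0.0324). On a scale that lifts low values less it was larger, -1.26 with a pseudocount of 0.1 and -1.37 with voom at the depth of the FPKM. Gpr62 reached the mean of 1 FPKM needed for the test only through its control libraries, and it could enter the test only because the groups differed in this direction.

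Near the threshold in this group stood Gpr162 and Gpr19, with fold changes of opposite sign. Gpr162, an orphan of the brain, held 6.75, 6.02 and 5.20 FPKM in control libraries 1, 3 and 4 and 4.29, 3.67 and 4.62 FPKM in Bcas2 cKO libraries 3, 4 and 5, again without overlap. Its log2 fold change was -0.43 (SE 0.11, limma adjusted p 0.0501). The call of Gpr162 passed in 4 other settings, such as rescaled without the hormone genes (limma adjusted p 0.0310). It did not pass without any single library (0.0579 to 0.133). Gpr19 (ENSMUSG00000032641, chromosome 6, 134869093 to 134898578) held 3.93, 6.01 and 4.36 FPKM in the controls against 6.89, 7.49 and 6.61 FPKM in the knockout. Every Bcas2 cKO value of Gpr19 was above every control value, with control library 3 close to them. Its log2 fold change of 0.49 (SE 0.14) came with a limma adjusted p of 0.0584, which became 0.0168 without control library 3 and 0.0305 with voom on the recovered reads at the depth of the FPKM. Gpr19 also passed over genes of at least 5 FPKM (limma adjusted p 0.0472) and with voom on library totals (0.00940). It did not pass without any other single library (0.110 to 0.155), without a filter (0.140) or rescaled without the hormone genes (0.111). Gpr75 was 1.88 ± 0.476 and 1.60 ± 0.242 FPKM (limma adjusted p 0.583).

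Of the 69, 9 were grouped here as proteins of organelles such as the Golgi and lysosome or as other atypical membrane proteins, and 7 of these were tested. Of the 7, 1 fell, where 7.55% of all genes tested fell. Gpr108 averaged 19.8 ± 1.27 FPKM in the controls against 20.7 ± 1.502 FPKM in the knockout (limma adjusted p 0.672), and Gpr107, its relative, 5.67 ± 0.0696 and 5.27 ± 0.128 FPKM (limma adjusted p 0.407). The lysosomal Gpr137 was 12.7 ± 0.885 and 11.3 ± 1.046 FPKM (limma adjusted p 0.316), Gpr89, a Golgi anion channel, 4.18 ± 0.283 and 3.94 ± 0.693 FPKM (limma adjusted p 0.701), and Gpr155, a cholesterol sensor of the lysosome, 2.35 ± 0.397 and 1.96 ± 0.114 FPKM (limma adjusted p 0.363). Gpr180, linked to TGF-beta signalling, was 14.5 ± 1.52 and 19.3 ± 4.34 FPKM, with Bcas2 cKO library 4 highest at 24.1 FPKM and the groups overlapping (limma adjusted p 0.160).

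Gpr137b, a lysosomal membrane protein that acts on mTORC1, was the member of this group that fell. Gpr137b (ENSMUSG00000021306, chromosome 13, 13357620 to 13394014) held 4.90, 5.70 and 5.09 FPKM in control libraries 1, 3 and 4 and 3.30, 3.67 and 3.41 FPKM in Bcas2 cKO libraries 3, 4 and 5. The groups did not overlap and the log2 fold change was -0.48 (SE 0.08, limma adjusted p 0.0145). A transcribed copy annotated as a pseudogene, Gpr137b-ps (chromosome 13, 12615057 to 12650388), is not among the 69 but was far more abundant, and it rose, from 79.7 ± 11.6 to 124 ± 11.95 FPKM. Its log2 fold change was 0.64 (SE 0.13, limma adjusted p 0.0243), a call lost without control library 4 or Bcas2 cKO library 4 or 5, without a filter (limma adjusted p 0.0630), with quantile normalization (0.0650) and rescaled without the hormone genes (0.0559). The longest annotated transcripts of the pair share a stretch of 672 aligned bases at 99.7% identity, and another of 132 bases at 98.5%. Gpr137b held 5.45 to 8.26% of the pair's reads in the controls against 2.80 to 3.06% in the knockout. How the authors' counting divided reads between such near-identical stretches was not given in the sources used here, so the level of Gpr137b is uncertain.

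The 7 falls did not hold equally when a library was left out. Gpr142, Gpr27 and Gpr161 kept an adjusted p under 0.05 without each of the 6 libraries in turn. Gpr137b lost it without Bcas2 cKO library 3 or 5 (largest adjusted p 0.0577), and Gpr158 without Bcas2 cKO library 3, 4 or 5 (largest 0.0896). Gpr45 kept it only without Bcas2 cKO library 5 (largest 0.0818). Gpr62 lost it without any Bcas2 cKO library (largest 0.0917) and dropped below 1 FPKM without any control library. Beside these falls, beta cell markers together, mostly Ins1 and Ins2, were at 166105 to 265527 FPKM in the controls against 108887 to 128742 FPKM in the knockout. Their part in the falls was not tested.

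**Figure D3:**
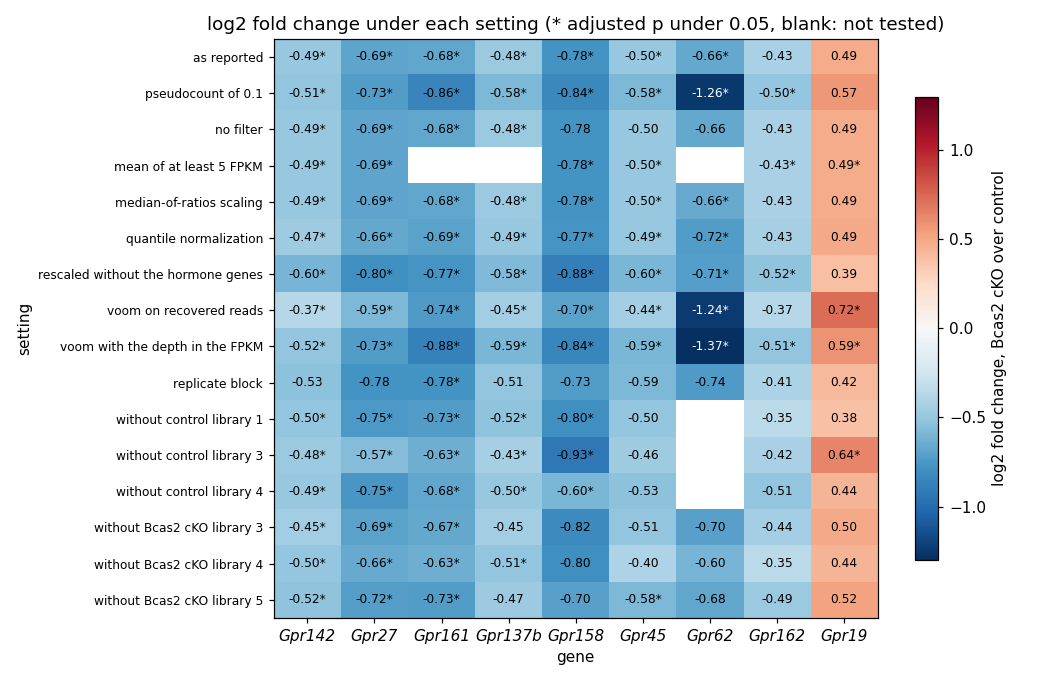
Log2 fold change (Bcas2 cKO over control) of the 7 receptors that fell and of Gpr162 and Gpr19, in columns, under each processing setting, in rows. Cells give the value and a colour, an asterisk marks an adjusted p under 0.05, and blank cells were not tested; Gpr142 and Gpr27 carry an asterisk in all rows but 1, and Gpr161 in every row in which it was tested.

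Of the 46 receptors below 1 FPKM, 28 had at least 20 reads over the 6 libraries and 18 had fewer. They were described by their reads and not tested. In 11 of the 46 (23.9%) every Bcas2 cKO value lay above every control value, against 13.5% of the protein-coding genes above 0 and below 1 FPKM. The opposite held for 2 of the 46 (4.35%), against 4.20%. The 11 were Gpr182, Gpr65, Gpr6, Gpr37l1, Gpr183, Gpr3, Gpr61, Gpr26, Gpr18, Gpr176 and Gpr84, and the 2 were Gpr1 and Gpr137c. The remaining 33 overlapped. Gpr26 and Gpr84 had 0 reads in every control library. They met the rule of a value above 0 only through the knockout libraries, where they were higher. Of the 46, 7 were at 0 in every control library and none was at 0 in every knockout library. The background genes also had to be above 0, and how far this rule shaped the 2 shares was not tested.

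**Figure D4:**
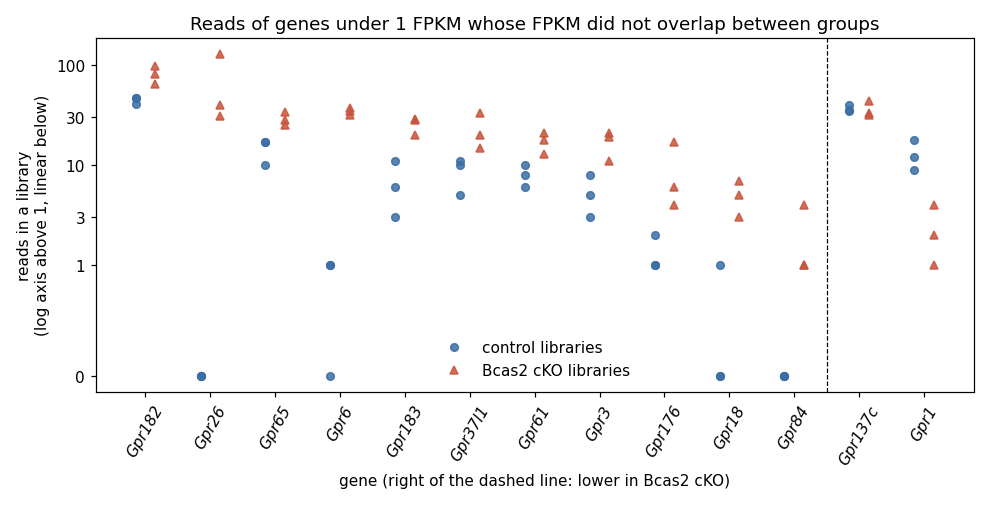
Recovered reads per library (log axis above 1, linear below) of the 13 receptors under 1 FPKM whose FPKM did not overlap between the groups, with circles for control and triangles for Bcas2 cKO libraries. Gpr6 has 0 to 1 reads in the controls against 32 to 37 in the knockout, Gpr26 has 0 in every control library, and the reads of Gpr137c overlap although its FPKM do not.

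Gpr6, Gpr3 and Gpr12 are close relatives that couple to Gs and raise cyclic AMP without any added ligand. Gpr12 was at 0, and the other two were higher in Bcas2 cKO. Gpr6 (ENSMUSG00000046922, chromosome 10, 41069977 to 41072285) had 1, 1 and 0 reads in control libraries 1, 3 and 4 and 37, 32 and 35 reads in Bcas2 cKO libraries 3, 4 and 5, or 0.0256 ± 0.0224 and 1.10 ± 0.0699 FPKM. The gene was nearly silent in every control library and at a similar low level in every Bcas2 cKO library. The ratio of reads at equal depth was 43.2 (95% exact interval 11.7 to 362, counting error only). In the fit without a filter on low values, where 1.91% of 32845 genes rose and 1.57% fell, Gpr6 was the only one of the 46 that passed (log2 fold change 1.03, SE 0.08, limma adjusted p 0.00861). Gpr3 had 3, 8 and 5 reads in control and 11, 21 and 19 reads in Bcas2 cKO, and did not pass in that fit (limma adjusted p 0.209).

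The promoters of Gpr6 and Gpr3 are shown with those of Gpr158 and Gpr45, which fell, because cyclic AMP response elements lie in the promoters of many activity-induced genes. Gpr6 and Gpr3 are the only 2 with a match among the 8 scarce receptors that were higher in Bcas2 cKO and had a promoter. The promoters shown are therefore examples, and no contrast between higher and lower receptors can be read from them. Each line gives the 250 bases before the transcription start, 5′ to 3′ on the gene's strand, from RefSeq (GRCm38.p6). Capitals mark matches to TGACGTCA, the full element, or to its shorter form TGACG, on either strand, where CGTCA is TGACG read from the other strand. A full element also counts as the shorter one on both strands.
Gpr6, chr10:41072291-41072540, minus strand: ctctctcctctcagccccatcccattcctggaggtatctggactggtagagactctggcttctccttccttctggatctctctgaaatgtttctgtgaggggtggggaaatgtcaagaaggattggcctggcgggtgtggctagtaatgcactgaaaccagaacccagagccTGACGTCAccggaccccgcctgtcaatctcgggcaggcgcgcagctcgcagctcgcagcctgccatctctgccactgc
Gpr3, chr4:133212537-133212786, minus strand: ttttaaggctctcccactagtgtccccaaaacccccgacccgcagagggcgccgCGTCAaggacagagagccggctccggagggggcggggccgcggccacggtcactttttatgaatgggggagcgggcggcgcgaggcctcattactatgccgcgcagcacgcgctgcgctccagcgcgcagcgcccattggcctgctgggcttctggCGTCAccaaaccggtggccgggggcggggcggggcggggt
Gpr158, chr2:21367317-21367566, plus strand: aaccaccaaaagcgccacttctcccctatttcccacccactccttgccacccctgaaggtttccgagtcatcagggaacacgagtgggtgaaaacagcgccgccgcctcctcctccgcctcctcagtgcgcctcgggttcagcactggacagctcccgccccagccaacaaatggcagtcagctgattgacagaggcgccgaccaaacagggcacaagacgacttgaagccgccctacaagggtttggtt
Gpr45, chr1:42952622-42952871, plus strand: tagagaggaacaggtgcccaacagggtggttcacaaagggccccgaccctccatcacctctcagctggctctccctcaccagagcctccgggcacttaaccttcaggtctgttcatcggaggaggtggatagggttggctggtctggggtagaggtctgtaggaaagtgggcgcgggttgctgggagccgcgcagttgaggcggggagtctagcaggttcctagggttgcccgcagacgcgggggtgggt

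Promoters were found for 48 of the 69 receptors, in 63 windows. Gpr6 was the only one of the 48 with the full element, which begins 78 bases before its start. The shorter form stood in 14 of the 63 windows. Of the 11 scarce receptors that were higher in Bcas2 cKO, 8 had a promoter, and 2 of the 8 held the shorter form (Gpr6 and Gpr3), while Gpr65, Gpr37l1, Gpr183, Gpr18, Gpr176 and Gpr84 did not. The 2 matches in Gpr3 begin 196 and 40 bases before the start. None of the 7 windows of the 5 receptors that fell and had a promoter (Gpr142, Gpr158, Gpr45, Gpr161 and Gpr62) held either form. Over all 32851 promoters of that length, 1.55% held the full element and 17.8% the shorter form, and over the 12179 promoters of tested genes 2.64% and 27.1%. The full element in 1 of the 63 windows, the shorter form in 14 of the 63, and the count of 2 among 8 are all near the background. The 7 windows of receptors that fell are too few to set their lack of a match apart from it. A match describes the letters only. Immediate early genes, many of which carry such elements, made up 0.267 to 0.657% of control reads against 1.86 to 2.25% of knockout reads. Of the 19 tested, 18 rose and none fell, where 6.97% of all genes tested rose and 7.55% fell. A link to Gpr6 or Gpr3 was not tested.

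Gpr26, an orphan of the brain, was without a read in the controls, while Bcas2 cKO libraries 3, 4 and 5 held 130, 31 and 40. Its mean of 0.324 ± 0.257 FPKM in Bcas2 cKO was 18.3 times the value that 3 reads in each control library would give. That floor covers counting error only, and library 3 held most of the reads. In the fit without a filter Gpr26 did not pass (limma adjusted p 0.190). The annotated span of Fgfr2, on the other strand, covers the gene. Gpr61, an orphan of the brain, had 6 to 10 reads in the controls against 13 to 21 in the knockout. Gpr176, an orphan of the circadian pacemaker, had 1 to 2 and 4 to 17 reads, and Gpr37l1, a receptor of glia, 5 to 11 and 15 to 33 reads.

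Receptors of leukocytes lay close to the limit of detection. Gpr65, a proton-sensing receptor of lymphoid and myeloid cells, had 17, 17 and 10 reads in control libraries 1, 3 and 4 and 34, 25 and 28 reads in Bcas2 cKO libraries 3, 4 and 5. Gpr183, the oxysterol receptor that guides B cells, had 3, 11 and 6 reads in the controls against 20, 29 and 28 in the knockout. Its neighbour Gpr18, which also lies inside the span of Ubac2, had 0 to 1 and 3 to 7 reads. The ratio was 12.5 at equal depth (95% exact interval 1.92 to 525, counting error only), on 1 control read in all. In the fit without a filter Gpr18 did not pass (limma adjusted p 0.0975). Gpr84, a receptor of medium-chain fatty acids on myeloid cells, had no read in the controls and 1 to 4 in the knockout. Gpr160, the most abundant of 5 further receptors grouped here with those of leukocytes, had 9, 29 and 14 reads in the controls against 49, 30 and 26 in the knockout. Its groups overlapped. Not every leukocyte receptor was higher: Gpr34 of microglia and macrophages had 4 to 11 and 3 to 8 reads, and Gpr171 of T cells 0 to 5 and 2 to 10. Of 10 tested markers of macrophages and lymphocytes, 5 rose while none fell, where 6.97% of all genes tested rose and 7.55% fell. The list summed to 98.5 to 124 FPKM in the controls against 120 to 144 FPKM in the knockout. The part of these markers in these receptors' values was not tested.

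Among proton sensors, the groups of Gpr4 and Gpr132 overlapped. Gpr4, which is strong in endothelium, was 1.33 ± 0.0539 and 1.28 ± 0.0708 FPKM (limma adjusted p 0.898), and Gpr132, a receptor of lymphoid and myeloid cells, had 10 to 12 and 12 to 22 reads. Gpr182, a scavenger of chemokines on endothelial cells, stood just under the 1 FPKM needed for the test, with 0.776 ± 0.0306 FPKM in the controls against 1.17 ± 0.213 FPKM in the knockout and no overlap. Of 8 tested endothelial markers none rose or fell, where 6.97% of all genes tested rose and 7.55% fell. The sum of the endothelial list was 113 to 136 FPKM in the controls against 109 to 144 FPKM in the knockout.

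Gpr1, a receptor of the adipokine chemerin, was lower in Bcas2 cKO. It had 12, 9 and 18 reads in control libraries 1, 3 and 4 and 2, 4 and 1 reads in Bcas2 cKO libraries 3, 4 and 5, or 0.354 ± 0.120 and 0.0528 ± 0.0347 FPKM. Every control library was above every Bcas2 cKO library although the latter were deeper. In the fit without a filter its limma adjusted p was 0.0658. Gpr137c was 0.287 ± 0.00810 and 0.234 ± 0.0372 FPKM.

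Because the comparison concerns a splicing factor, the receptors were also described by exon structure in GENCODE M21. The coding sequence lay in 1 exon in every coding transcript of 39 of the 69, and was divided over more exons in 30. Over all genes tested 7.55% fell, and the counts that follow include Gpr62, whose entry into the test depended on its difference. Of the 8 tested receptors of the first kind 3 fell (Gpr27, Gpr45 and Gpr62), with a median log2 fold change of -0.19. Of the 15 of the second kind 4 fell (Gpr142, Gpr158, Gpr137b and Gpr161), with a median of -0.15. Exonic bases were shared with another gene in 23 of the 69, among them Gpr158 (7.36%, the antisense gene Gm13327), Gpr62 (2.58%, Pcbp4), Gpr19 (9.25%, an antisense gene), Gpr3 (7.46%, Cd164l2), Gpr65 (24.7%, an antisense gene) and Gpr84 (39.5%, an antisense gene). Whether counting used strand was not given in the sources used here, so reads of such pairs cannot be told apart.

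The proteins that act with receptors were described from 5 lists, beside shares of 7.55% that fell and 6.97% that rose over all genes tested. Of 11 tested G protein alpha subunits 1 fell and none rose (median log2 fold change 0.02). It was Gnao1, the Go subunit of neurons and endocrine cells, from 51.7 ± 3.46 to 38.2 ± 2.48 FPKM (limma adjusted p 0.0243). Gnas, the Gs subunit, was 21.2 ± 1.79 and 28.4 ± 3.76 FPKM without passing it (limma adjusted p 0.0648). Of 10 beta and gamma subunits 1 fell and none rose (median -0.11), Gng4 from 55.02 ± 4.78 to 38.4 ± 5.72 FPKM (limma adjusted p 0.0403).

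Among 9 kinases and arrestins that switch receptors off, 1 fell and 1 rose (median 0.12). Grk5 averaged 19.0 ± 3.08 FPKM in the controls against 8.19 ± 1.20 FPKM in the knockout, a log2 fold change of -1.12 (SE 0.14, limma adjusted p 0.00486), the largest on the log2(FPKM + 1) scale among the tested genes of these lists. With a pseudocount of 0.1 it was -1.20, against 1.40 for Gprc5a. Grk2 rose from 22.4 ± 1.03 to 33.9 ± 1.75 FPKM, a log2 fold change of 0.58 (SE 0.08, limma adjusted p 0.00627). The beta-arrestin gene Arrb2 was 15.7 ± 1.78 and 12.9 ± 0.323 FPKM (limma adjusted p 0.118). Of 17 tested chaperones and sorting factors 2 fell, Reep6 (-0.49) and Usp33 (-0.27), and 1 rose, Rtp4 (0.69), with a median of -0.03. Of 4 tested Gprc5 and Gprc6 receptors Gprc5a, a retinoic acid-induced orphan, rose from 0.729 ± 0.0684 to 2.12 ± 0.526 FPKM (limma adjusted p 0.0185). Its mean reached 1 FPKM only through the knockout libraries, and it could enter the test only because the groups differed in this direction. Without each library in turn Grk5 and Grk2 kept their calls in all 6 fits. Reep6 lost its call without any Bcas2 cKO library, Gprc5a without control library 4 or Bcas2 cKO library 3 or 4, and Gng4 and Usp33 without any library. Gnao1 kept it only without control library 1 or 3, and Rtp4 only without control library 1 or Bcas2 cKO library 4. Other settings also ended some of these calls. With quantile normalization Gnao1 and Gng4 lost theirs (limma adjusted p 0.0724 and 0.0510), and with voom on library totals Gnao1, Gng4, Reep6 and Usp33 did (0.162, 0.115, 0.0707 and 0.354). Rescaled without the hormone genes, Rtp4 and Usp33 lost theirs (0.0540 and 0.0581), and without a filter Gng4, Gprc5a, Rtp4 and Usp33 did (0.0920, 0.0551, 0.113 and 0.0629).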

How the data were processed

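RNA of 6 mouse islet samples was sequenced after Trizol extraction and SMARTer library preparation, per the labels' protocols. The authors deposited FPKM per Ensembl gene with gene lengths, per the file headers; the build was GRCm38 (mm10), per the submitters' processing notes. Aligner, counting program and scaling: not given in the sources used here. Multiplied by gene length, 100% of the FPKM above 0 fell on whole reads, within 0.01 of a read, from which reads were recovered. Limma 3.58.1 (trend, R 4.3.3) compared log2(FPKM + 1) for genes averaging 1 FPKM or more. A fold change is on that scale, which understates low genes. The adjusted p-values cover all genes tested, with a threshold of 0.05. The test was checked on simulated data. Alternatives were a pseudocount of 0.1, no filter, 5 FPKM, 3 scalings, voom, a replicate block and leaving out each library. Voom at the depth of the FPKM was added after the data were seen. Named receptors were those called, the 12 of highest mean, the highest of each role group, and those without overlap at an absolute log2 fold change of at least 0.5. Others named for low reads were chosen after their values were seen. The members and lists were chosen with earlier results of these data known. Exons came from GENCODE M21, promoters from RefSeq. Python 3.11.15, pandas 2.3.3, scipy 1.17.1 and matplotlib 3.10.9 were used. Some members are not reported here by name.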

Additional observations from a re-analysis of the deposited data

How the results depend on the processing

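With 3 libraries a group and few reads for most receptors, the counts of calls moved with the processing. Over all genes 957 rose and 1036 fell. Without a filter 628 rose and 516 fell, with voom on library totals 1744 and 551, and rescaled without the hormone genes 608 and 1249. Leaving out a library gave 466 to 956 rises and 391 to 994 falls. Of the receptors, where 7 fell and none rose, 4 fell and 1 (Gpr6) rose without a filter, and 1 (Gpr19) rose over genes of at least 5 FPKM and with either form of voom. Leaving out a library gave 3 to 5 falls and 0 to 1 rises. The cause of these shifts was not tested, beyond the number of genes or libraries in each fit. With a block on the numbers 3 and 4, which both groups carry, 352 genes rose and 186 fell, and 1 receptor fell, Gpr161. Gpr137b-ps and, of the 8 called genes that act with receptors, all but Grk5 lost their calls there. That fit has 1 residual degree of freedom. Same-numbered libraries did not deviate together (correlations of -0.149 and 0.0453), so the numbers were not taken as pairs. Bcas2 (-0.42) passed the test rescaled without the hormone genes (-0.52) and with voom at the depth of the FPKM (-0.45) and without control library 1, and without single libraries ranged from -0.52 to -0.27. Receptors without a call changed sign near 0. These were Gpr108 rescaled without the hormone genes (-0.0511), Gpr107 (0.0419), Gpr89 (0.0448), Gpr4 (0.10) and Gpr157 (0.11) with voom on library totals, and Gpr89 with the replicate block (0.0428) and without Bcas2 cKO library 5 (0.0439), where leaving out single libraries gave Gpr89 -0.148 to 0.0439. Gpr62, Gpr137b and Gpr161 were not tested at 5 FPKM.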
